A study of Mus musculus with 4 samples.

Results

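The genes described here encode non-collagen components of the extracellular matrix: adhesive and matricellular glycoproteins, proteoglycans, elastic fibre proteins, and the enzymes and cofactors that process or crosslink matrix fibres. They were given as a list of 42 gene symbols. A gene was followed where the array carried a probe set annotated with that symbol alone, which held for 38 of the 42, out of 18193 genes on the array. Of these 38, 30 were bright enough to be tested, 8 (Dcn, Lox, Loxl1, Fbn2, Mfap2, Tnc, Emilin1 and Efemp1) lay below the filter on dim probe sets, and Spp1, Efemp2, Fbn1 and Loxl2 were not analysed here.

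RNA was measured on 4 Affymetrix mouse arrays, 2 for each of a pair of cultured skin melanocyte lines from Balb/c mice. The non-pigmented cells are homozygous for a point mutation of Tyr, which encodes tyrosinase, the first enzyme of melanin synthesis. The pigmented cells are labelled as wild type, with that mutation corrected. Both were grown in RPMI 1640 medium with FCS, 2-mercaptoethanol and the phorbol ester TPA, an activator of protein kinase C. Neither the way the mutation was corrected nor whether either line is a single clone is stated in the labels, and no separate cultures are named, so the spread behind each p-value is that between these samples only and may be technical. With bulk RNA, fewer cells of a type and less RNA per cell cannot be told apart.

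The matrix is both scaffold and signalling surface. Fibronectin and the matricellular proteins connect it to integrins, proteoglycans carry sulphated glycosaminoglycan chains that hold water and bind growth factors, and basement membrane proteins link the laminin and collagen IV networks. Enzymes outside the cell trim procollagen and crosslink collagen and elastin. Melanocytes of the epidermis rest on the basement membrane beneath it.

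The median probe set signal lay between 99.7 and 130 over the 4 arrays. Control probe sets of Gapdh at the 3′ and 5′ end, which track RNA integrity, had a 3′ to 5′ ratio that was 0.864 and 0.903 in replicate 1 of the pigmented and non-pigmented line, but 16.8 and 20.2 in replicate 2 of either. By this ratio alone, replicate 1 of both lines is called the intact pair here and replicate 2 of both the degraded pair. What caused the high ratios was not tested. Differences within each pair are given for the genes that were called, here or with that pair as a block. Of 12 melanocyte markers, 9 rose in the pigmented line (Tyr, Dct, Pmel, Mlana, Mitf, Kit, Gpr143, Trpm1 and Oca2). All 12 had both pigmented arrays above both non-pigmented ones, and 11 had an unadjusted p under 0.05 by limma. Over all 12558 tested genes, 1.33% were called higher, 24.4% had both pigmented arrays above, and 785 were higher at that unadjusted p. The summed signal of the 12 markers was 15923 and 27203 on the non-pigmented and 164645 and 152498 on the pigmented arrays. The signal of Sox10, a neural crest transcription factor, was 8268 and 8558 on the non-pigmented and 8602 and 10232 on the pigmented arrays.

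Of the 30 tested genes of the list, those that passed the test were lower in the pigmented line. Pcolce, Mgp, Cnmd, Bcan, Ecm1, Bgn and Fn1 fell, by 2.48 to 6.96 on the log2 scale, and none of the 30 rose. With limma, these 7 had an adjusted p under 0.05, against 255 of all 12558 tested genes that were called lower (2.03%) and 167 that were called higher (1.33%), together 3.36%. At an unadjusted p under 0.05 there were 10 of the 30 lower and 0 higher, against 950 lower and 785 higher of all 12558 tested genes. The median difference over the 30 tested members was -0.91 and that over all tested genes 0.068. The list was chosen with earlier results of these data known, so these contrasts describe it and do not test it. All differences are pigmented minus non-pigmented on log2(signal + 16), with p-values adjusted by the Benjamini-Hochberg method over all tested genes. Errors after a difference are limma's standard errors, and those after a group mean are SDs of 2 arrays. Only genes whose signals were higher on average than 70.7 (a log2 value of 6.44) were tested, so a gene could enter through the line in which it was bright.

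**Figure D1:**
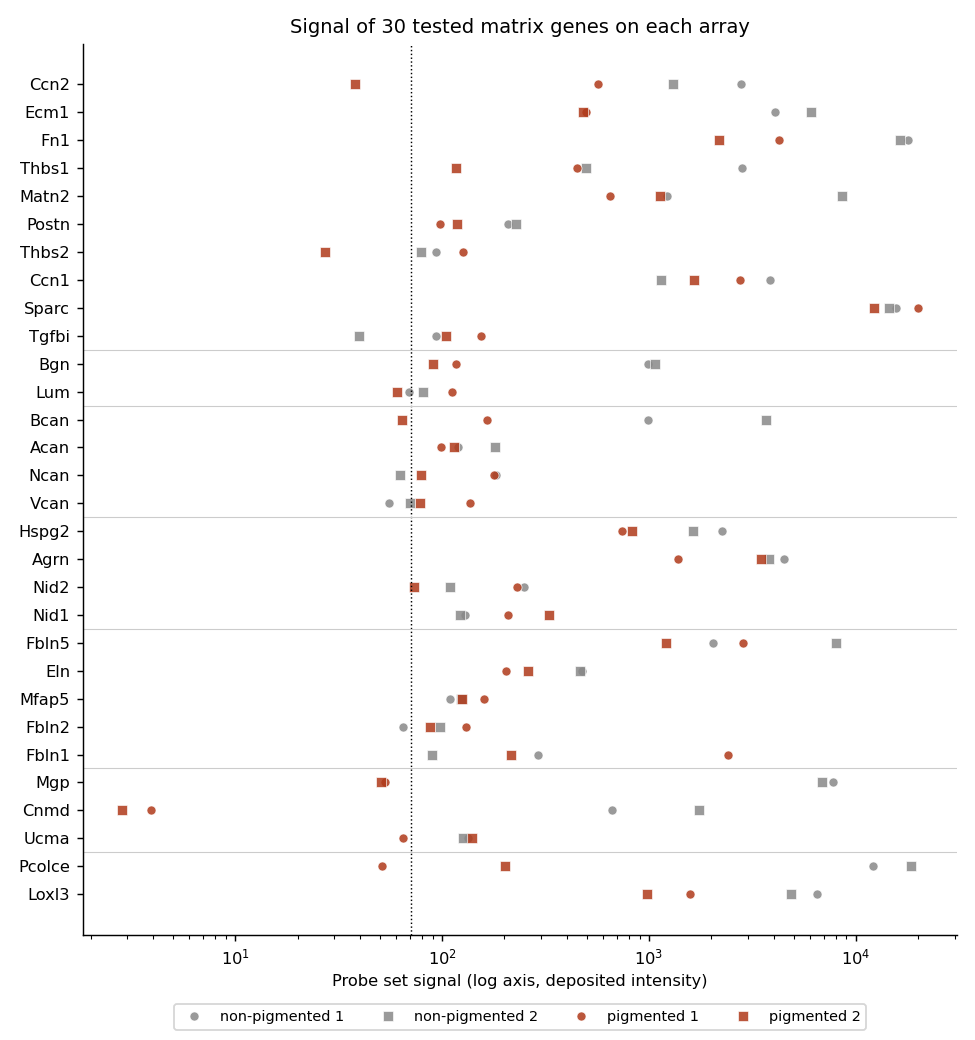
Signal of the 30 tested genes on each array (log axis, deposited intensity), with grey marks for the non-pigmented and red marks for the pigmented line, circles for replicate 1 and squares for replicate 2. Grey rules separate the functional groups and the dotted line marks a signal of 70.7. For Pcolce, Mgp, Cnmd, Ecm1, Bgn, Bcan and Fn1 both red marks lie to the left of both grey ones.

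Upstream sequences are shown for 3 of the genes that fell: Ecm1, the only one of them with a match to an AP-1 motif, and Pcolce and Cnmd, which had the largest falls among those with an entry in the promoter table. Each is the 250 bases before the annotated start in RefSeq (GRCm38.p6), read 5′ to 3′ on the strand of the gene, with motif matches in capitals. All 3 genes lie on the minus strand, at chr3:95739570-95739819, chr5:137611405-137611654 and chr14:79662184-79662433 in that order.
Ecm1: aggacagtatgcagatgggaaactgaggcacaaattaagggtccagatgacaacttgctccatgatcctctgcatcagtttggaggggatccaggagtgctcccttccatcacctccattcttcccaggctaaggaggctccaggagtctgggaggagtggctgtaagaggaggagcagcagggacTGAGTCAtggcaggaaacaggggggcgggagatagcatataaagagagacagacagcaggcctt
Pcolce: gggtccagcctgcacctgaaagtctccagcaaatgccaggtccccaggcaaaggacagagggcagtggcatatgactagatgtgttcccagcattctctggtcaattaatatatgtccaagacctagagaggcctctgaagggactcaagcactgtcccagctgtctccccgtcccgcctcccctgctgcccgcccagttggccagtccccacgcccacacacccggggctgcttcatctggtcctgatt
Cnmd: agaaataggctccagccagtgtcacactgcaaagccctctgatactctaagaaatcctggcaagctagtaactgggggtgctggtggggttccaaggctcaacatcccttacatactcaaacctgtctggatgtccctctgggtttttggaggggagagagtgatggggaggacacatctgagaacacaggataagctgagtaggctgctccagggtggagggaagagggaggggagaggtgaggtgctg

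Motifs were searched as exact letters on both strands, in windows that reach 50 bases past the start: TGACTCA of AP-1, the factor that phorbol esters activate, CATTCC of the TEAD factors, and CATGTG, an E-box core bound by Mitf. Other E-box letters were not searched. No window of a listed gene held more than 1 match. A window was found for 27 of the 42 genes. The AP-1 letters occurred in 2 of them, Ecm1 (64 bases before the start, in capitals above) and Ucma (23 bases after it), against 5.95% of the 27025 genes in the table. The TEAD letters occurred in 4, Ccn1, Acan, Nid1 and Mfap2, against 16.6% of all genes. The E-box letters occurred in 0 of the 27, against 15.9% of all genes. Of the 7 genes that fell, 5 had a window (Mgp and Fn1 had none), and Ecm1 alone held any of the motifs.

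Processing and crosslinking genes included the largest fall. Pcolce encodes a secreted enhancer of the enzyme that removes the C-terminal propeptide of fibrillar procollagens. Its signal was 12142 and 18486 on the non-pigmented arrays and 51.1 and 200.6 on the pigmented ones. The groups lay far apart, and the pigmented arrays differed from each other more than the non-pigmented ones did. Group means on the log2 scale were 13.87 ± 0.43 (SD, n = 2) for the non-pigmented and 6.91 ± 1.20 (SD, n = 2) for the pigmented line, which differed by -6.96 ± 0.65 (adjusted p of 0.00682 by limma). The other probe set of Pcolce fell by 7.37. Within the intact and the degraded pair the differences were -7.50 and -6.42.

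Loxl3, a lysyl oxidase that crosslinks collagen and elastin, had signals of 6466 and 4834 on the non-pigmented and 1577 and 978 on the pigmented arrays. The groups did not overlap, which was so with the pigmented arrays lower for 19.5% of all tested genes. Group means were 12.45 ± 0.30 and 10.30 ± 0.48 (SD, n = 2 each). The difference of -2.16 ± 0.44 did not pass in limma (adjusted p of 0.0628), and it passed with arrays blocked by RNA integrity pair (adjusted p of 0.0126), with median centring (0.0395) and without pigmented replicate 1 (0.0242). It failed when arrays were blocked by date (0.163) and without non-pigmented replicate 1 (0.329) or 2 (0.203) or pigmented replicate 2 (0.118). Within the intact and degraded pairs it was -2.02 and -2.29. Lox and Loxl1, the other genes of that enzyme family with probe sets among the 42, were below the filter on every probe set. Signals of Lox lay between 3.75 and 47.2 on the probe set used.

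Among the genes best known from cartilage, Mgp, the vitamin K-dependent inhibitor of matrix calcification, had signals of 7772 and 6848 on the non-pigmented and 53.0 and 50.5 on the pigmented arrays. Replicates of a line were close to each other in both groups. Group means were 12.84 ± 0.13 and 6.08 ± 0.036 (SD, n = 2 each), and Mgp fell by 6.75 ± 0.41 (adjusted p of 0.00512 by limma). Cnmd encodes chondromodulin, a cartilage glycoprotein that inhibits the growth of blood vessels. Its signal was 660 and 1739 on the non-pigmented arrays and 3.92 and 2.85 on the pigmented ones, so that it was measured as bright in the non-pigmented line only. Group means were 10.09 ± 0.97 and 4.28 ± 0.057 (SD, n = 2 each), and Cnmd fell by 5.81 ± 0.57 (adjusted p of 0.00719 by limma). The differences within the intact and degraded pairs were -6.82 and -6.69 for Mgp and -5.09 and -6.54 for Cnmd. For both genes the pigmented mean was below the filter value, so the size depends on the pseudocount: with 64 in place of 16 the difference was -5.99 for Mgp and -4.08 for Cnmd, and with 1 it was -7.11 for Mgp, while Cnmd then dropped below the filter.

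Ucma, which encodes a further cartilage matrix protein, was not called. On the probe set used its signals overlapped, at 133 and 126 on the non-pigmented and 64.6 and 139 on the pigmented arrays (difference -0.38 ± 0.50). A second, dimmer probe set of Ucma, below the filter, read 66.7 and 445 against 7.73 and 34.3.

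Of 12 chondrocyte markers 6 were tested, of which Col2a1 (difference -6.79 ± 0.90, adjusted p of 0.0164 by limma) and Col9a1 (-4.37 ± 0.65, adjusted p of 0.0240) fell, 0 rose and 4 did not pass, and 6 were below the filter. The summed signal of the 12 was 12700 and 13436 on the non-pigmented and 623 and 933 on the pigmented arrays, and on the non-pigmented arrays Col2a1 (10366 and 6147) and Col9a1 (1633 and 5545) made up most of it. All 6 tested markers had negative differences (median -1.39), 3 of them without overlap and 3 with an unadjusted p under 0.05. The groups overlapped for Sox9, and also for Matn1 and Comp, which were below the filter. Sox9, the transcription factor that defines chondrocytes, read 103 and 95.5 against 44.5 and 160, Matn1 read 5.03 and 50.1 against 43.1 and 19.1, and Comp read 53.3 and 65.6 against 34.7 and 107. Of 9 Schwann cell markers with probe sets 8 were tested, of which Mbp, S100b, Pmp22 and Sox2 fell, 0 rose and 4 did not pass. Of these 4, Mal (1.76) and Foxd3 (1.95) had positive differences without overlap and an unadjusted p under 0.05, and Gfap a negative one (-2.42). The 9 summed to 20978 and 24450 against 3178 and 4117. Of 4 tested fibroblast markers 0 were called by limma and 1 had an unadjusted p under 0.05, and the 12 on the array summed to 936 and 1141 against 1782 and 1888. Smooth muscle markers summed to 5550 and 2023 against 1029 and 864 (0 of 3 tested called, 2 at an unadjusted p under 0.05), and keratinocyte markers to 859 and 827 against 427 and 439 (1 of 3 lower, Krt10). Immune markers summed to 1253 and 2519 against 1065 and 602 (0 of 4 called, 1 unadjusted), and endothelial markers to 322 and 364 against 723 and 515.01 (0 of 1 called, 0 unadjusted). Over all 12558 tested genes, 2.03% were called lower, 1.33% were called higher and 1735 had an unadjusted p under 0.05. Both pigmented arrays lay below both non-pigmented ones for 19.5% of all tested genes and above them for 24.4%. None of the markers had a signal of 0, but with no detection column a signal above 0 does not show that a marker was expressed. The part of other cell types in the matrix differences was not tested.

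The small leucine-rich proteoglycans organise collagen fibrils. Bgn, which encodes biglycan, had signals of 990 and 1063 on the non-pigmented and 116 and 90.6 on the pigmented arrays. The replicates were close and the groups well apart, with mean log2 values of 10.02 ± 0.072 and 6.89 ± 0.22 (SD, n = 2 each). Bgn fell by 3.13 ± 0.41 (adjusted p of 0.0163 by limma), and its other probe sets differed by -3.96 and -4.43, both called. Within the intact and degraded pairs Bgn differed by -2.93 and -3.34. Lum (lumican) read 68.9 and 80.8 against 112 and 60.3, with overlapping groups and a difference of 0.12 ± 0.49 whose sign turned under quantile normalization and median centring. Dcn (decorin) was below the filter on both probe sets, with signals from 10.3 to 136.

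The hyaluronan-binding proteoglycans form a family of large chondroitin sulphate carriers. Bcan, which encodes brevican, a proteoglycan best known from brain, had signals of 987 and 3679 on the non-pigmented and 164 and 64.1 on the pigmented arrays. The non-pigmented arrays differed by more than the pigmented ones did, yet both lay above them. Group means were 10.91 ± 1.33 and 6.91 ± 0.83 (SD, n = 2 each), a difference of -4.0 ± 0.75 (adjusted p of 0.0474 by limma). It was -2.48 within the intact pair and -5.53 within the degraded pair. Its second, dimmer probe set read 203 and 304 against 47.9 and 60.9. That probe set differed by -1.92 and did not pass in the fit over all 22341 probe sets (adjusted p of 0.177), and in that fit the main probe set did not pass either (0.0848). When probe sets whose ID carries an s, x or a suffix were left out, Bcan was not called (0.0988).

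Acan (aggrecan), Ncan (neurocan) and Vcan (versican) were not called. Their signals stayed between 98.7 and 180 for Acan, between 62.8 and 181 for Ncan and between 55.5 and 136 for Vcan over the 4 arrays. Their differences were -0.42 ± 0.45, 0.13 ± 0.64 and 0.62 ± 0.48, and that of Ncan changed sign under quantile normalization and median centring. All 8 probe sets of Vcan had small positive differences, 7 of them below the filter.

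Among adhesive and matricellular genes, Fn1 (fibronectin), the ligand of several integrins, had signals of 17944 and 16360 on the non-pigmented and 4261 and 2187 on the pigmented arrays. It thus remained a bright signal in both lines. Fn1 fell by 2.48 ± 0.41 (adjusted p of 0.0331 by limma), with mean log2 values of 14.07 ± 0.094 and 11.58 ± 0.68 (SD, n = 2 each), and it was lower within the intact (-2.07) and the degraded (-2.89) pair. The second probe set read 3584 and 1311 against 362 and 641 and differed by -2.13, which did not pass over all probe sets (adjusted p of 0.249), where the main probe set was at 0.0561.

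Ecm1 encodes a secreted glycoprotein of skin that binds the proteoglycan perlecan. Its signal was 4066 and 6093 on the non-pigmented and 497 and 478 on the pigmented arrays. Group means were 12.29 ± 0.41 and 8.98 ± 0.037 (SD, n = 2 each), and Ecm1 fell by 3.31 ± 0.43 (adjusted p of 0.0155 by limma). The differences within the intact and degraded pairs were -2.99 and -3.63. The groups were well apart relative to the spread between replicates.

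Ccn2 and Thbs1 did not pass, but did with the RNA integrity pair as a block. Ccn2 encodes connective tissue growth factor, a matricellular protein induced by TGF-beta, and read 2769 and 1306 on the non-pigmented against 568 and 38.1 on the pigmented arrays. The replicates of both lines were lower on the degraded array. Group means were 10.91 ± 0.76 and 7.47 ± 2.43 (SD, n = 2 each), and the difference of -3.43 ± 1.10 had an adjusted p of 0.223 by limma, against 0.0348 with the block and 0.119 with the date as a block. It was -2.25 within the intact pair and -4.61 within the degraded pair. The difference was -5.15 (0.00114) without pigmented replicate 1 but -1.72 (0.273) without pigmented replicate 2, and it did not pass without non-pigmented replicate 1 (0.471) or 2 (0.230). Thbs1 encodes thrombospondin 1, an adhesive glycoprotein that activates latent TGF-beta. Its signals were 2801 and 493 against 447 and 116, with group means of 10.23 ± 1.75 and 7.95 ± 1.28 (SD, n = 2 each). The difference of -2.27 ± 0.96 did not pass (adjusted p of 0.375 by limma, against 0.0234 with the block). It was -2.60 within the intact and -1.94 within the degraded pair, and it failed when arrays were blocked by date (0.407) and in each fit that left out 1 array (0.0648 to 0.890).

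Sparc, a collagen-binding matricellular protein, was bright on all arrays, at 15673 and 14516 on the non-pigmented and 19876 and 12187 on the pigmented ones. The groups overlapped, and the difference was 0.045 ± 0.33, with a negative sign under quantile normalization and median centring. Ccn1, a matricellular relative of Ccn2, read 3861 and 1140 against 2761 and 1656, a difference of 0.026 ± 0.66. The sign turned with median centring and with the mean of the probe sets, and the other probe sets of Ccn1 differed by -0.13, -0.87 and -1.03 without passing.

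Matn2, a matrilin that bridges matrix filaments, read 1218 and 8589 on the non-pigmented and 644 and 1135 on the pigmented arrays. Replicate 2 of the non-pigmented line stood apart from the other arrays. The difference of -1.90 ± 0.92 did not pass (adjusted p of 0.454 by limma), and it was -0.50 (0.932) without that array and -3.30 (0.0633) without non-pigmented replicate 1. Its second probe set read 1040 and 8108 against 420 and 91.7. Postn (periostin) read 208 and 227 against 97.7 and 118 (difference -0.92 ± 0.42, adjusted p of 0.425 by limma). Tgfbi, a TGF-beta-induced adhesion protein, had a difference of 0.87 ± 0.53 and Thbs2 one of -0.38 ± 0.66, both with signals no higher than 154. Tnc (tenascin C) was below the filter, with signals from 38.8 to 65.0 on the probe set used.

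**Figure D2:**
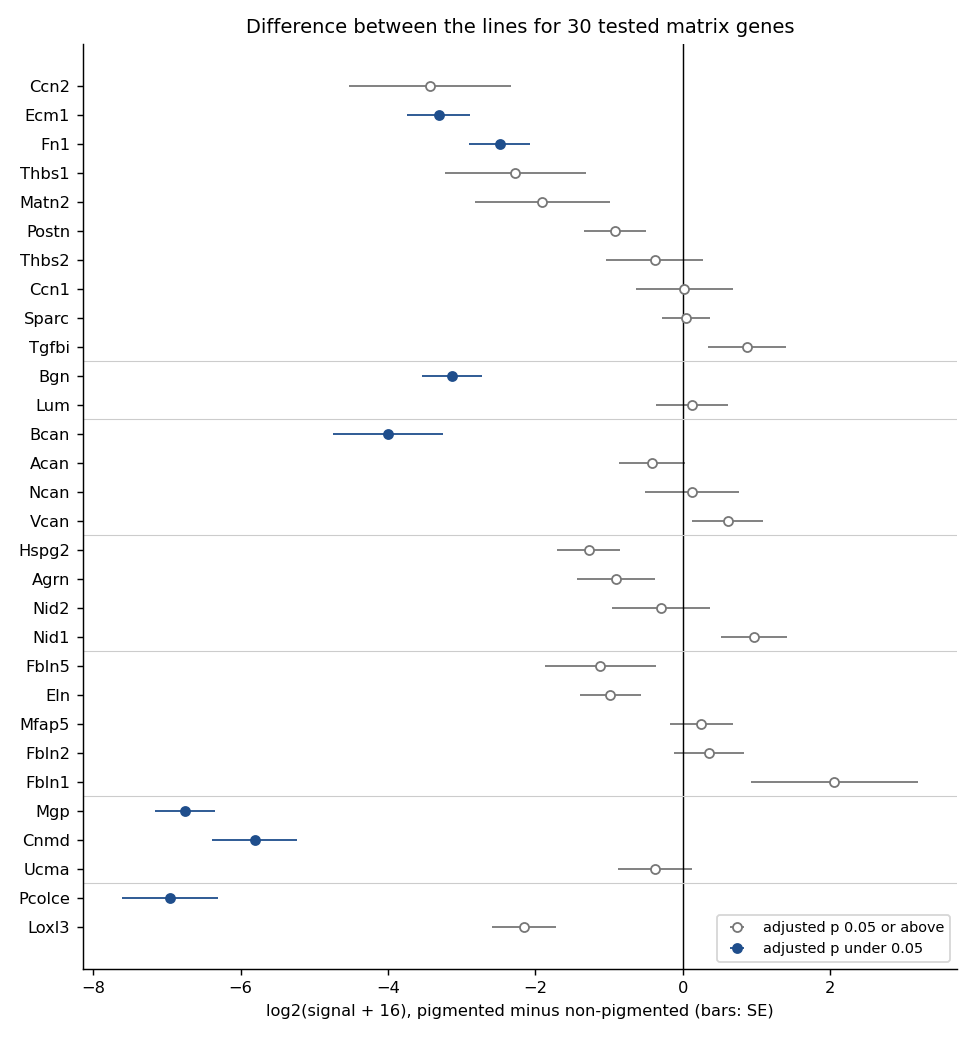
Difference between the lines in log2(signal + 16), pigmented minus non-pigmented, for the 30 tested genes in their functional groups, with bars for the standard error. Filled points had an adjusted p under 0.05. The 7 filled points lie between -6.96 and -2.48, and the remaining genes between -3.43 and 2.06.

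Of the genes that link basement membrane networks, none was called on the probe set used, and 1 of the 4 had an unadjusted p under 0.05. That gene was Hspg2, which encodes the heparan sulphate proteoglycan perlecan. It read 2253 and 1629 on the non-pigmented against 742 and 827 on the pigmented arrays, and differed by -1.27 ± 0.43 (adjusted p of 0.242 by limma). The second probe set of Hspg2 went further apart, at 2879 and 4717 against 197 and 141, and fell by 4.34 ± 0.49 (adjusted p of 0.0196 by limma over all probe sets). Hspg2 was also called when its probe sets were averaged.

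Agrn (agrin), another heparan sulphate proteoglycan of basement membranes, read 4492 and 3792 against 1387 and 3487. Replicate 2 of the pigmented line came close to the non-pigmented arrays, and the difference was -0.90 ± 0.53. The nidogens tie laminin to collagen IV. Nid1 read 130 and 122 on the non-pigmented against 209 and 328 on the pigmented arrays, without overlap, but its difference of 0.97 ± 0.44 did not pass (adjusted p of 0.424 by limma). Nid2 read 247 and 109 against 231 and 72.8, with overlapping groups.

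Among the elastic fibre and microfibril genes, 5 of 11 were tested and none passed limma (0 called, and 0 with an unadjusted p below 0.05). Eln, the gene of elastin, read 474 and 465 on the non-pigmented and 203 and 261 on the pigmented arrays. The groups did not overlap, and the difference was -0.98 ± 0.41 (adjusted p of 0.375). Fbln5, which helps to assemble elastin onto microfibrils, read 2027 and 8001 against 2831 and 1211, and its difference was 0.48 within the intact pair and -2.71 within the other.

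Fbln1, a fibulin of basement membranes and elastic fibres, read 290 and 89.5 on the non-pigmented against 2419 and 215 on the pigmented arrays. One pigmented array stood apart, and the groups overlapped. The difference of 2.06 ± 1.13 did not pass in limma (adjusted p of 0.515), and it rested on single arrays: it was 3.76 (0.00944) without pigmented replicate 2, 0.36 (0.855) without pigmented replicate 1, 1.29 (0.886) without non-pigmented replicate 2 and 2.83 (0.488) without non-pigmented replicate 1. Its other 2 probe sets differed by 1.78 and 0.20. Fbln2 and Mfap5 had differences of 0.36 ± 0.47 and 0.26 ± 0.43. Fbn2, Mfap2, Emilin1 and Efemp1 were below the filter; over all 8 genes below it, signals on the probe sets used lay between 3.75 and 136.

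**Figure D3:**
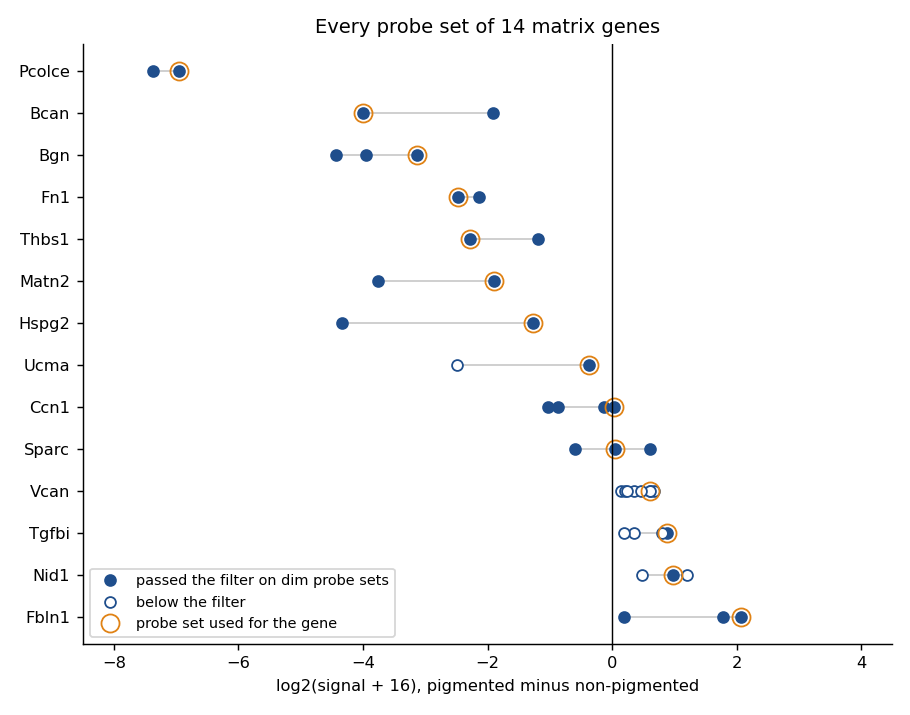
Difference between the lines in log2(signal + 16) for every probe set of 14 genes with several. Filled points passed the filter on dim probe sets, open points lay below it, and the ring marks the probe set used for the gene. Both probe sets of Pcolce (-6.96 and -7.37) and of Fn1 (-2.48 and -2.13) lie on the same side of 0, those of Hspg2 are at -1.27 and -4.34, and those of Ucma at -0.38 and -2.50.

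Over the 38 genes there were 83 probe sets, of which 45 passed the filter. In the fit over probe sets 9 of these were lower with an adjusted p under 0.05 (limma) and 0 higher, against 1.04% lower and 0.689% higher of all tested probe sets. The 9 comprised both of Pcolce, all 3 of Bgn, those of Mgp, Cnmd and Ecm1, and 1 of Hspg2.

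The calls depended on the pairing of arrays and on single arrays. With the integrity pair as a block, 10 listed genes were called lower and 0 higher (all genes: 4.32% lower and 2.72% higher), the 7 named above with Ccn2, Loxl3 and Thbs1. The array titles also carry a pair of dates, each shared by 1 array of either line. With the date as a block the same 7 were called lower and 0 higher (all genes: 1.96% lower and 1.16% higher). Within the earlier and the later date, the differences were -5.81 and -8.11 for Pcolce, -6.87 and -6.64 for Mgp, -5.17 and -6.46 for Cnmd and -3.65 and -4.36 for Bcan. They were -3.05 and -3.57 for Ecm1, -3.24 and -3.03 for Bgn and -3.03 and -1.94 for Fn1, so every one of the 7 was lower within both dates. Without non-pigmented replicate 2 only Cnmd, Mgp and Pcolce were called. Without non-pigmented replicate 1, Bgn (adjusted p of 0.0508 by limma) and Fn1 (0.142) were lost. Of the 30 tested genes 16 had both pigmented arrays below both non-pigmented ones (all genes: 19.5%) and 4 had both above (24.4%).

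**Figure D4:**
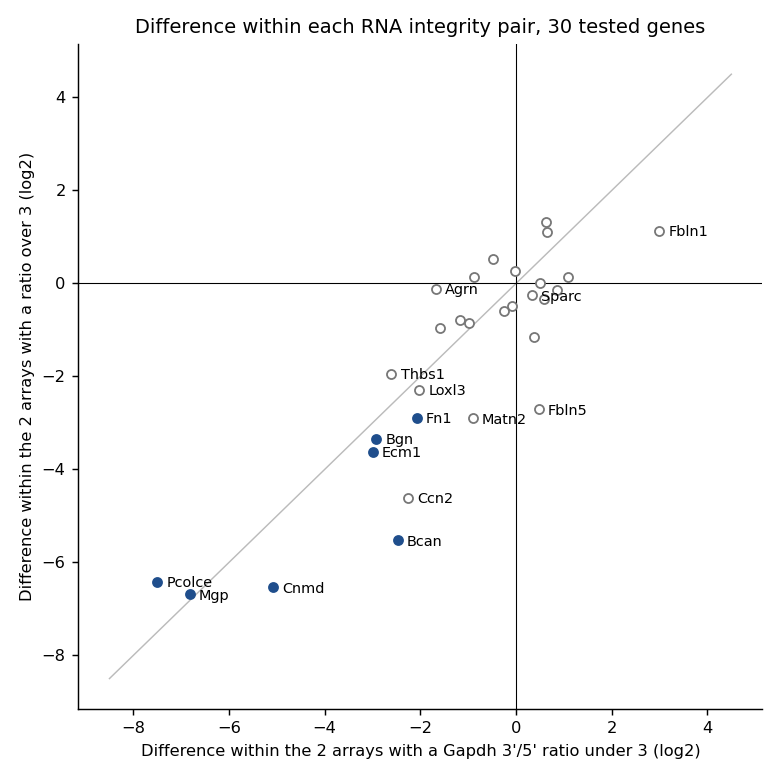
Difference in log2(signal + 16) within 2 pairs of arrays for the 30 tested genes. The horizontal pair had Gapdh 3′ to 5′ ratios of 0.864 and 0.903, the vertical pair ratios of 16.8 and 20.2. Filled points had an adjusted p under 0.05 and the grey line marks equal values. Mgp and Pcolce lie near the line, at -6.82 and -6.69 and at -7.50 and -6.42, while Bcan (-2.48 and -5.53) and Ccn2 (-2.25 and -4.61) lie below it.

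Among enzymes that modify collagen and elastin, Tgm2, Bmp1 and P4ha2 were lower in the pigmented line. Of 27 listed genes 18 were tested, of which 3 fell, 0 rose and 15 did not pass, with a median difference of -1.10. Over all tested genes, 2.03% were called lower and 1.33% higher. Tgm2, a transglutaminase that crosslinks matrix proteins, read 2770 and 11289 on the non-pigmented against 63.2 and 32.7 on the pigmented arrays and fell by 6.50 ± 0.73 (adjusted p of 0.00966 by limma). With a pseudocount of 1 another of its probe sets was used and the difference was -4.20. Bmp1, the procollagen C-proteinase whose activity the product of Pcolce enhances, read 3498 and 3385 against 508 and 624 and fell by 2.58 ± 0.41 (adjusted p of 0.0286), and 2 of 3 probe sets had that sign. P4ha2, a collagen prolyl hydroxylase subunit, fell by 2.23 ± 0.41 (adjusted p of 0.0438). Bmp1 and P4ha2 were not called without either non-pigmented array, P4ha2 not without either pigmented one, and neither with the date as a block (0.0894 and 0.152). Plod2, a lysyl hydroxylase, had a difference of -2.38 (adjusted p of 0.0632), P4ha1 one of -1.66 (0.119) and P3h2 one of -2.33 (0.163).

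Of 40 genes that build, sulphate or trim glycosaminoglycan chains, 32 were tested, of which 4 fell, 1 rose and 27 did not pass, with a median difference of -0.83. The shares over all tested genes were 2.03% lower and 1.33% higher. Sulf2, an extracellular sulphatase of heparan sulphate, read 6755 and 11125 against 185 and 83.1 and fell by 5.94 ± 0.54 (adjusted p of 0.00618 by limma). Chst11, a chondroitin 4-O-sulphotransferase, read 2781 and 6972 against 37.1 and 103 and fell by 5.80 ± 0.64 (adjusted p of 0.00943). Csgalnact1, which starts chondroitin chains, fell by 4.09 ± 0.63 (0.0263) and Extl1, a glycosyltransferase of heparan sulphate, fell by 2.90 ± 0.49 (0.0361). Chsy3, a chondroitin synthase, rose instead, from 77.6 and 90.2 to 894 and 2613, by 3.96 ± 0.59 (0.0243). Without non-pigmented replicate 2, Sulf2 and Chst11 were the genes called in this list, and without non-pigmented replicate 1, Sulf2, Chst11 and Csgalnact1 were. Without pigmented replicate 1 there were 7 lower and 1 higher. Differences not called were -2.14 for Chst7 (adjusted p of 0.0518), -2.27 for Slc26a2 (0.0924) and -2.16 for Chst12 (0.114).

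Of 66 further secreted matrix genes only 24 were tested, with 2 that fell, 2 that rose and a median difference of 0.18 (all genes: 2.03% lower and 1.33% higher). Prelp, another small leucine-rich repeat protein, read 6642 and 6131 against 532 and 630 and fell by 3.43 ± 0.40 (adjusted p of 0.0105 by limma). Ntn4, a netrin of basement membranes, fell by 2.88 ± 0.45 (0.0281), in 1 of 2 probe sets. Npnt (nephronectin), an integrin ligand of basement membranes, rose from 167 and 41.5 to 3869 and 1666, by 4.64 ± 0.71 (0.0260), with all 5 probe sets in that direction. Adamtsl2, a microfibril-associated protein, rose by 2.77 ± 0.50 (0.0431). None of these 4 was called without non-pigmented replicate 2, Ntn4 and Adamtsl2 were lost without non-pigmented replicate 1, and Adamtsl2 without pigmented replicate 2. Blocking by integrity pair gave 6 lower and 4 higher (all genes: 4.32% lower and 2.72% higher). Ogn (osteoglycin), a small leucine-rich proteoglycan, read 18.4 and 59.5 against 445 and 3438. Its difference of 4.63 ± 0.97 did not pass (adjusted p of 0.0707 by limma), but did when arrays were blocked by integrity pair (0.0107) or by date (0.0187). Fmod (fibromodulin) had a difference of -2.12 (0.0841), which passed with the integrity block (0.0492) and not with the date block (0.136). Tinagl1 had a difference of -2.86 (0.0962).

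Cell-surface proteoglycans and genes of hyaluronan turnover were not called. Of 22, 15 were tested and 0 passed limma, with 5 at an unadjusted p under 0.05 (all genes: 1735 of 12558). The syndecans differed in sign. Sdc3 read 534 and 657 on the non-pigmented against 2125 and 2195 on the pigmented arrays (difference 1.84 ± 0.41, adjusted p of 0.0849 by limma), Sdc1 read 2072 and 2530 against 651 and 622 (-1.82 ± 0.41, 0.0873), and Sdc4 had a difference of -2.31 ± 0.61 (0.137). With arrays blocked by integrity pair, Sdc1 and Sdc3 passed (0.0280 and 0.0266).

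**Figure D5:**
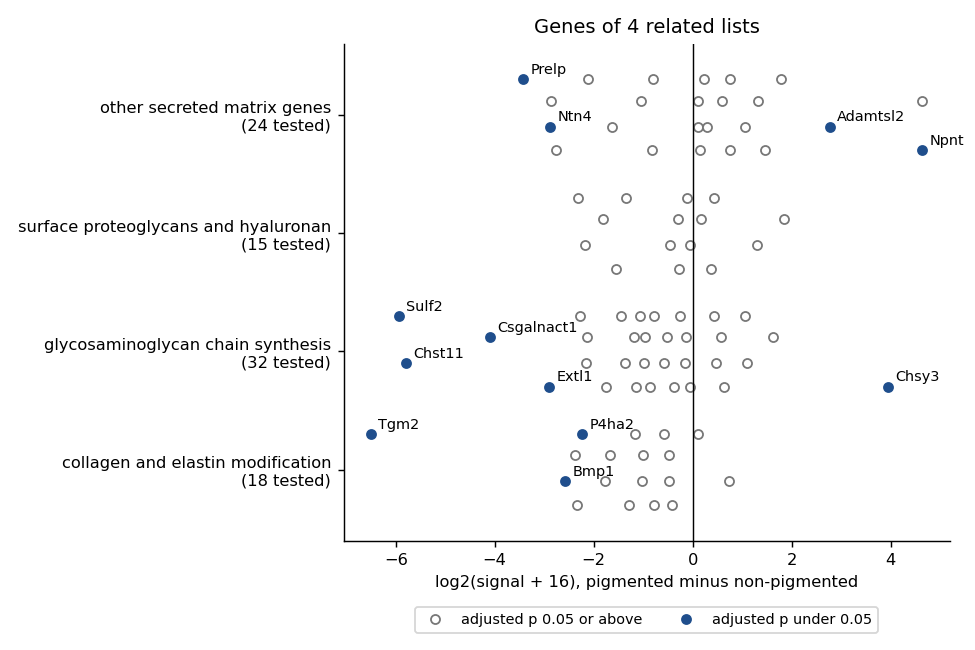
Difference between the lines in log2(signal + 16) for the tested genes of 4 related lists, 1 row of points per list (vertical offsets only separate points). Filled and named points had an adjusted p under 0.05. Below 0 lie 3 for collagen and elastin modification, 4 for glycosaminoglycan chain synthesis, and Prelp and Ntn4 for other secreted matrix genes. Chsy3, Npnt and Adamtsl2 lie above 0.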

How the data were processed

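The authors deposited 1 linear intensity per probe set and array. Affymetrix Expression Console made them, per the submitters' processing notes; its version and summary algorithm are not given in the sources used here. The mean of each deposited column after trimming 2% at either end was 499.9, a common scale. There is no detection column. Of 45101 probe sets, 64 controls were left out, and 34945 had 1 gene symbol in the platform annotation.

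Each gene was represented by its brightest probe set. Genes under the 40th percentile of probe set means were left out, leaving 12558. log2(signal + 16) was modelled by lmFit and trended eBayes (limma 3.58.1, R 4.3.3), 2 arrays against 2 with no covariate, with Benjamini-Hochberg adjustment at 0.05. The fit was tested on simulated data with independent noise on each array. These data held no effect of date or integrity pair, so the test does not cover such effects. With 2 against 2 arrays an exact two-sided permutation test cannot give a p below 0.333, and the number of arrays limits the precision.

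The titles carry a pair of dates, each shared by 1 array of either line. Deviations of same-date arrays from their line's mean correlated at -0.51 across genes, and those of arrays of the same integrity pair at 0.51. The arrays of a line deviate from its mean by equal and opposite amounts, so these values differ only in sign by construction. They show that deviations were more alike within integrity pairs than within dates. An effect of date was not tested by these values. Members and lists were chosen with earlier results of these data known. Every member was to be named, with full values for those called here or with the date or integrity pair as a block, and for other lists the called genes and up to 3 others with the smallest p. Figures were drawn with matplotlib 3.10.9.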

Additional observations from a re-analysis of the deposited data

How the results depend on the processing

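The alternatives were the date and the integrity pair as blocks, quantile normalization, median centring (which moved the median difference of all genes by -0.24), other filters, pseudocounts, variance settings and probe set choices, and leaving out each array. The 7 calls of Pcolce, Mgp, Cnmd, Bcan, Ecm1, Bgn and Fn1 were all kept with the date as a replicate block (7 lower, 0 higher; 246 and 146 over all genes), with quantile normalization, median centring, robust estimation, a pseudocount of 64 and the mean of probe sets. The integrity pair crosses the dates, and with it as a block 543 genes were called lower and 341 higher over all genes. Bcan and Fn1 were lost without the filter, Fn1 without the trend, Bcan with a pseudocount of 1, and Bcan with plain probe sets only, where Pcolce had no probe set. Cnmd was below the filter, and so not tested, at the 60th percentile and with a pseudocount of 1. Without single arrays 3 to 9 listed genes were called lower and 0 to 1 higher, and over all genes 127 to 505 lower and 100 to 267 higher. In those fits the lone array of a line is assumed to vary like the other line's. Signs turned only for differences that were not called: to -0.094 and -0.12 for Lum, -0.073 and -0.20 for Sparc and -0.070 and -0.12 for Ncan under quantile normalization and median centring, and for Ccn1 to -0.22 with median centring, -0.50 with the mean of probe sets and -1.03 with plain probe sets. Without single arrays the difference ranged from -0.25 to 0.50 for Lum, -0.31 to 0.40 for Sparc, -1.24 to 0.48 for Thbs2, -0.53 to 0.79 for Ncan, -1.03 to 0.45 for Nid2, -0.85 to 0.90 for Ccn1 and -0.85 to 0.096 for Ucma. The cause was not tested. With no detection column, signals near the filter value cannot be told from background.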
